A study of Mus musculus with 2 samples.

Results

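The miRNAs of the miR-143/miR-145 and miR-199/miR-214 clusters were examined in MVs, the membrane vesicles that cells shed, from mouse bone marrow MSCs. Members were taken by name, as every array entry in which a listed miRNA has the stem miR-143, miR-145, miR-145a, miR-145b, miR-199a, miR-199b or miR-214, and this gave 9 of the 831 entries, among them mmu-miR-143-3p, mmu-miR-199a-5p and mmu-miR-214-3p (mmu, for mouse, is left out below). These names, and the lists of other miRNAs below, were chosen with earlier results of these data known. The study asked whether erythropoietin (EPO) alters the miRNA content of these vesicles, and compared EPO-MVs, from MSCs kept for 48 h in serum-containing medium with 100 IU/ml EPO, with MSC-MVs, from MSCs kept for 48 h in that medium without EPO. According to the methods, the MSCs were primary cells of male C57BL/6 mice aged 4 weeks, used at passage 3. Both groups carried 10% fetal bovine serum in the medium, and how many animals or cultures stand behind each RNA sample is not given in the sources used here.

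Each group had 1 miRCURY LNA Array, so differences have no replicate check, no test was run, and array and treatment cannot be told apart. The values are normalized intensities without a unit, and over the 831 entries they summed to 1957 (EPO-MVs) and 2147 (MSC-MVs). The brightness of different probes depends on the probes as well as on the miRNAs, so ranks below describe brightness and not abundance. In a vesicle preparation, fewer vesicles carrying a miRNA and less of it per vesicle cannot be told apart.

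A miRNA is a short RNA that guides Argonaute proteins to messenger RNAs, mostly by pairing of its seed, bases 2 to 8, and lowers their output. Each is cut from a hairpin whose arms give a -5p and a -3p product, and neighboring hairpins can come from a single primary transcript. The miR-143/miR-145 cluster is characteristic of smooth muscle and other mesenchymal cells, where serum response factor and myocardin drive it and where it favors the contractile state. The miR-199a/miR-214 cluster is transcribed as part of Dnm3os, a long noncoding RNA of the mesenchyme induced by Twist1, and miR-214 and miR-199a-5p have both been linked to organ fibrosis.

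In the GRCm38.p6 annotation from RefSeq, Mir143 and Mir145a are adjacent miRNA genes within the long noncoding RNA gene Carmn, while Mir145b lies apart from them, within Gm31088. Mir199a-2 and Mir214 both lie within Dnm3os, itself within Dnm3, on chromosome 1 and are separated by 5444 bases. Mir199a-1 lies within Dnm2 on chromosome 9 and Mir199b within Dnm1 on chromosome 2. Each of these dynamin genes thus carries a miR-199 hairpin.

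Mature sequences from RefSeq were matched to 4 of the 9 entries and are printed 5′ to 3′ with the seed in capitals, because the seed sets which messenger RNAs a miRNA can pair with and because identical sequences share an entry.
miR-199a-5p: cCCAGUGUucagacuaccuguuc
miR-199a-3p: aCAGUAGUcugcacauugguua
miR-199b-3p: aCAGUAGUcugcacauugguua
miR-214-3p: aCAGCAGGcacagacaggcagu
miR-214-5p: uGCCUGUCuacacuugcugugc
These sequences hold 4 different seeds. The -3p products of miR-199a and miR-199b are the same sequence and share an entry, so their signal can come from Mir199a-1, Mir199a-2 and Mir199b.

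The hairpins are shown because Mir214 is the only gene behind its pair of entries, whereas the entries of miR-199a-5p and of the shared -3p product can each draw on more than 1 gene. Capitals mark the arms for which a mature sequence was matched.
Mir199a-1 (chr9:21496495-21496564, minus strand): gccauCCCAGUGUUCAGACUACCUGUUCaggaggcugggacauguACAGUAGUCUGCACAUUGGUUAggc
Mir199a-2 (chr1:162217814-162217923, plus strand): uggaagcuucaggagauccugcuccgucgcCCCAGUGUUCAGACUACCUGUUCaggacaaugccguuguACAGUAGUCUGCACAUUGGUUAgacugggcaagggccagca
Mir199b (chr2:32318460-32318569, plus strand): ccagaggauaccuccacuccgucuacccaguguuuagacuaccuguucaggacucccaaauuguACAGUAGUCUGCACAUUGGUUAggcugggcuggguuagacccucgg
Mir214 (chr1:162223368-162223477, plus strand): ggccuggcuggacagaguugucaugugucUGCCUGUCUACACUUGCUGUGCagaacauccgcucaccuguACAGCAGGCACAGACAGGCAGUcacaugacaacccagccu
Both miR-199a hairpins hold the same 23-base -5p product. The Mir199b hairpin holds a stretch of equal length that differs from miR-199a-5p at 1 base, the substitution C10U counted from 1 at the 5′ end of miR-199a-5p, and keeps the seed.
Mir199b stretch: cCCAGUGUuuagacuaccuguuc
How far the probes of miR-199a-5p and miR-199b-5p distinguish such a base was not tested.

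Of the 9 entries, 8 had a lower intensity in EPO-MVs than in MSC-MVs, against 43.9% of all 831 entries. The exception was miR-214-5p. The median ratio of EPO-MVs to MSC-MVs was 0.738, or -0.44 on the log2 scale, and the ratios ran from 0.648 to 1.02. Over all entries the median ratio was 1.035, with 50% of entries between 0.856 and 1.32.

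The study filtered on 1.5-fold. Here miR-143-3p was past this threshold and lower in EPO-MVs, and the other 8 entries stayed within it. Lower by at least 1.5-fold were 7.58% of all entries (63 of 831), and 25.4% changed in either direction, so 1 of 9 is a share near the background. The entry just past the threshold, miR-143-3p, was 1.54-fold lower, and the nearest entry short of it, miR-145a-5p/miR-145b, was 1.46-fold lower.

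**Figure D1:**
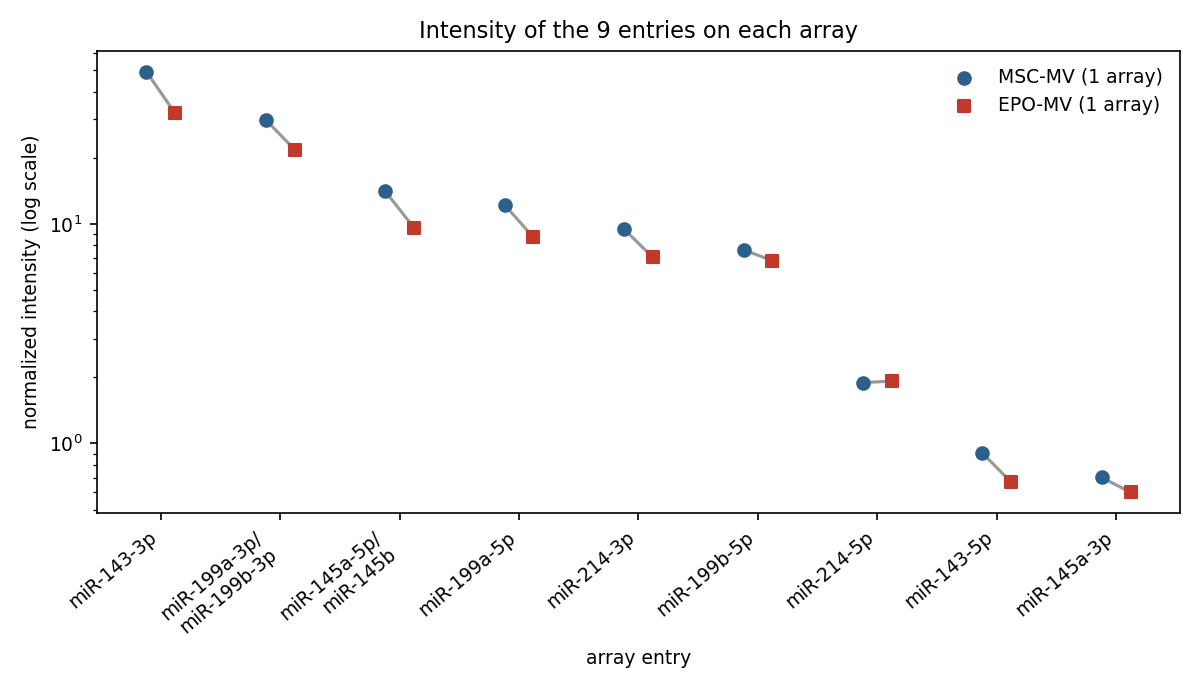
Normalized intensity (log scale) of the 9 entries in MSC-MVs (blue circles) and EPO-MVs (red squares), with 1 array each and a line joining the values of an entry. The red square lies below the blue circle for 8 entries, and miR-214-5p is about level at 1.92 in EPO-MVs and 1.89 in MSC-MVs.

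Within the miR-143/miR-145 cluster, miR-143-3p was the brightest of the 9 entries. Its known targets include the kinase ERK5, and it is abundant in mesenchymal cells. In MSC-MVs it had an intensity of 49.3 and in EPO-MVs of 31.9, a ratio of 0.648 (-0.63 on the log2 scale). It ranked 13th in brightness on the EPO-MV array and 7th on the MSC-MV array. The other arm, miR-143-5p, had intensities of 0.667 and 0.904, a ratio of 0.738. Both arms of this hairpin were therefore lower in EPO-MVs, and their log2 ratios differed by 0.19.

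The entry shared by miR-145a-5p and miR-145b, whose known targets include the factor KLF4 in smooth muscle, had an EPO-MV intensity of 9.60 and an MSC-MV intensity of 14.1, a ratio of 0.683. Its log2 ratio lay 0.08 from that of miR-143-3p. The share of this signal that comes from Mir145a, the neighbor of Mir143, cannot be told apart from that of Mir145b. The other arm, miR-145a-3p, had intensities of 0.599 and 0.700, a ratio of 0.855. All 4 entries of the miR-143/miR-145 group were lower in EPO-MVs, with a median ratio of 0.710. For both miR-143 and miR-145a, the brighter entry had the lower ratio.

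Within the miR-199/miR-214 group, the shared entry of miR-199a-3p and miR-199b-3p, known to act on mTOR and MET, was the brightest. It measured 21.8 in EPO-MVs and 29.7 in MSC-MVs, a ratio of 0.733. It ranked 18th in brightness in EPO-MVs and 14th in MSC-MVs. The entry of miR-199a-5p, which is known to repress caveolin-1 in fibroblasts, had intensities of 8.68 and 12.2, a ratio of 0.713. Its log2 ratio lay 0.04 from that of the shared -3p entry.

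The paralog miR-199b-5p measured 6.80 in EPO-MVs and 7.62 in MSC-MVs, a ratio of 0.893. On the log2 scale it lay 0.33 above miR-199a-5p. With 1 array a group there is no error against which this difference between the paralogs could be set.

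For miR-214-3p, which is known to restrain osteoblasts through ATF4, the array read 9.46 in MSC-MVs and 7.03 in EPO-MVs, a ratio of 0.744. Its log2 ratio lay 0.06 from that of miR-199a-5p, whose source genes include Mir199a-2, which lies with Mir214 in Dnm3os. How much of the miR-199a-5p signal comes from Mir199a-2 was not tested. The other arm, miR-214-5p, had intensities of 1.92 and 1.89, a ratio of 1.02. The arms of Mir214 lay 0.45 apart on the log2 scale and those of Mir143 0.19 apart. The entries of miR-145a, of which the -5p entry also reads miR-145b, lay 0.32 apart. The 5 entries of the miR-199/miR-214 group had a median ratio of 0.744, and 4 of them were lower in EPO-MVs.

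The 9 entries kept the same order of brightness on both arrays. Of them, 7 were in the brightest 25% of all entries, ordered by mean log2 intensity, and miR-143-5p and miR-145a-3p were in the next 25%. The brighter entries tended to have the lower ratios, with a Spearman rho of -0.77 and a Pearson r of -0.58 between mean log2 intensity and log2 ratio over the 9 entries. The points share the 2 arrays and in part a hairpin, so this is a description. Over all 831 entries rho was -0.33, and over the 208 entries of the brightest 25% it was -0.15.

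**Figure D2:**
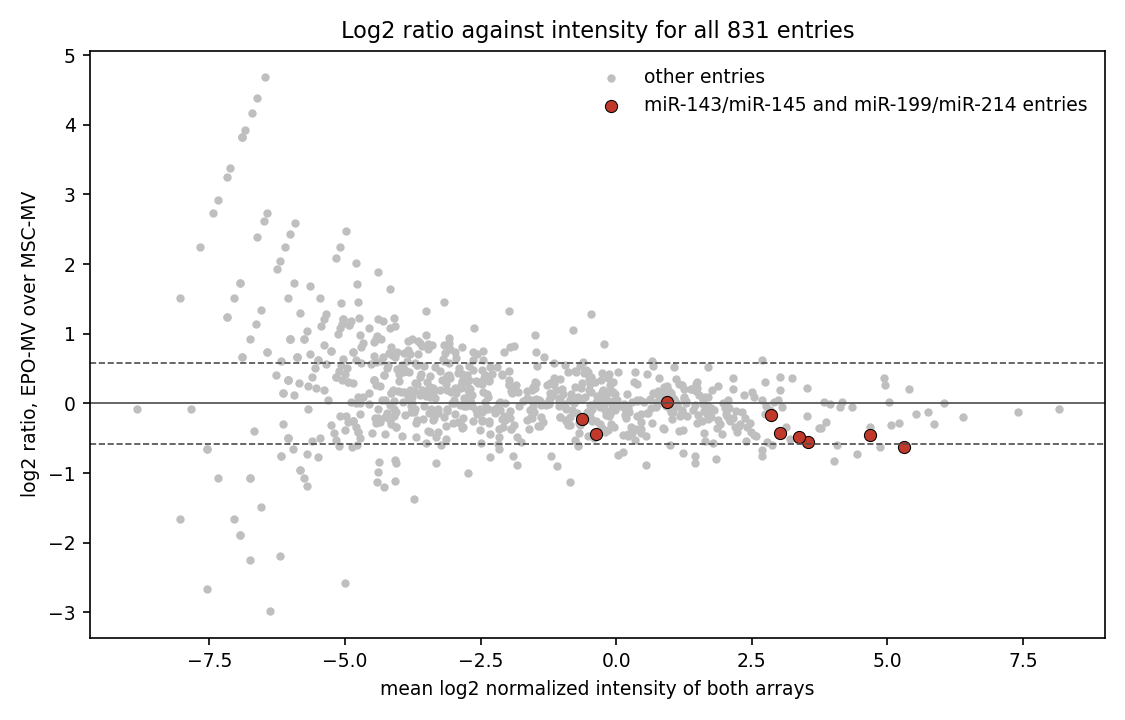
Log2 ratio of EPO-MVs to MSC-MVs (vertical) against mean log2 normalized intensity of both arrays (horizontal) for all 831 entries (gray) and the 9 entries described here (red), with dashed lines at 1.5-fold. Large ratios crowd at low intensity, whereas the red points are bright and lie between log2 ratios of -0.63 and 0.02.

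Since brightness moved with the ratio, the members were read beside entries of like brightness. Among the brightest 25% the median ratio was 0.942, and 63.0% of entries were lower in EPO-MVs. Of the 7 members among them, 6 were lower, with a median ratio of 0.733. Among these 208 entries, 7.69% (16) were lower by at least 1.5-fold. Counted from the lowest ratio, miR-143-3p was 12th of the 208, miR-145a-5p/miR-145b 19th, miR-199a-5p 24th, miR-199a-3p/miR-199b-3p 29th and miR-214-3p 34th. The entries of miR-199b-5p and miR-214-5p were 82nd and 141st.

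Removing the trend with intensity by a lowess curve brought the median ratio of the 9 entries to 0.832, and 8 remained below 1, but miR-199b-5p lay at 0.995. Under lowess miR-143-3p had a ratio of 0.756 and was no longer past 1.5-fold. Its ratio was also short of the threshold after quantile normalization (0.680) and after scaling to the 75th percentile (0.672). The 1.5-fold call of miR-143-3p thus depended on the scaling. The ratio of miR-214-5p lay on either side of 1, from 0.982 after re-centring on the median of all entries to 1.11 after scaling to the summed intensity.

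**Figure D3:**
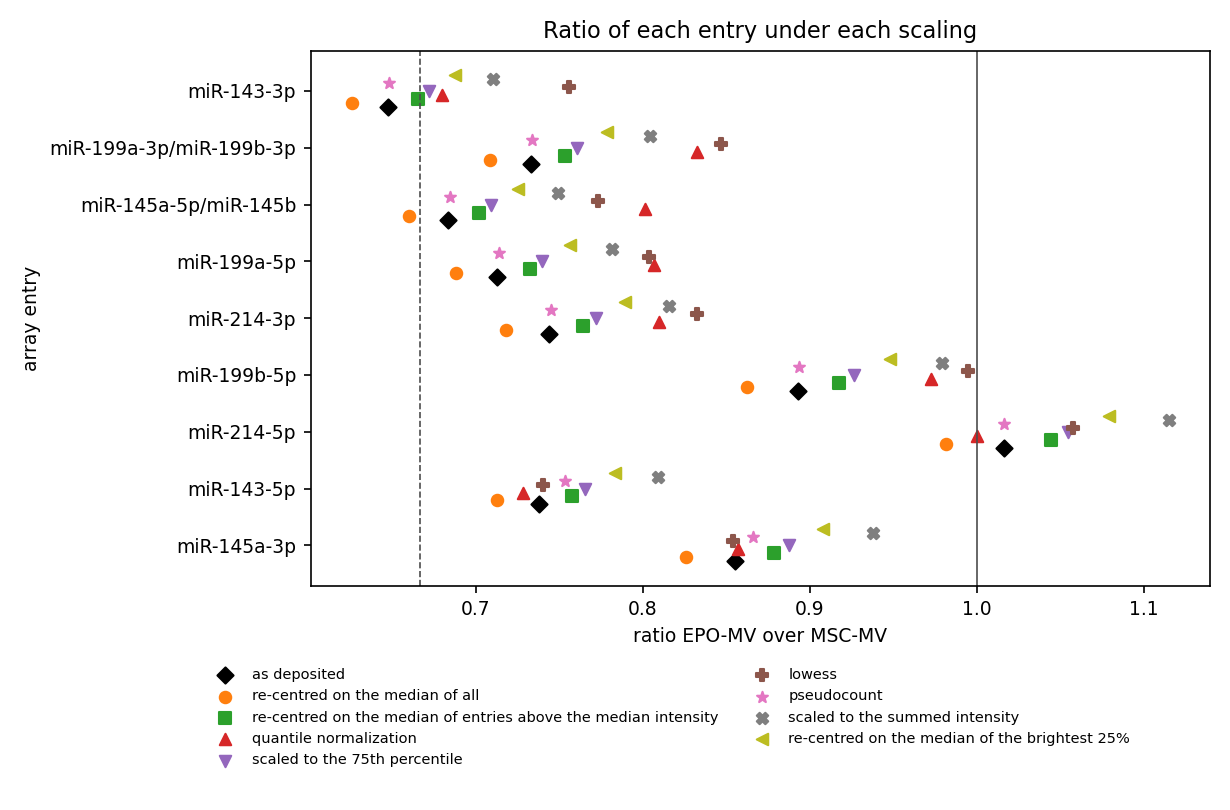
Ratio of EPO-MVs to MSC-MVs (horizontal) of each of the 9 entries under the deposited scaling (black diamonds) and 8 other treatments of the values, with a dashed line at a 1.5-fold decrease and a solid line at 1. The points of miR-143-3p lie between 0.626 and 0.756 on both sides of the dashed line, and 8 of the 9 entries lie left of 1 throughout.

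The entries nearest to the members in the log2 intensities of both arrays were also bright. Over these 2 values, the nearest to miR-143-3p were miR-125b-5p (distance 0.28), miR-23a-3p (0.42) and miR-142-3p (0.46). Nearest to miR-199a-5p were miR-140-3p (0.21), miR-762 (0.30) and miR-26b-5p (0.35). Nearest to miR-214-3p were miR-26b-5p (0.15), let-7d-5p (0.25) and miR-668-3p (0.27). Of these entries, let-7d-5p, with 5.94 in EPO-MVs and 8.98 in MSC-MVs, was past 1.5-fold, and the ratios of the others were between 0.702 and 0.963.

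Outside the clusters, miR-761 has the seed of miR-214-3p.
miR-761: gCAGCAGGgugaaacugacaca
It was dim, at 0.197 in EPO-MVs and 0.163 in MSC-MVs, with a ratio of 1.21, where miR-214-3p had 0.744. Sequences from the chromosome of Mir143 and Mir145a were left out of this search. Among the others in the RefSeq table, no further mature sequence shared the seeds printed above.

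Other miRNAs known from mesenchymal and stromal cells were read from a list of 12 stems, such as miR-21a, miR-22 and miR-125b, which gave 24 entries outside the clusters. Of these, 20 were lower in EPO-MVs, 3 by at least 1.5-fold, and none was higher by that much, with a median ratio of 0.848. Over all entries 43.9% were lower at all, 7.58% lower by at least 1.5-fold and 17.8% higher by as much. The 15 of the list in the brightest 25% had a median ratio of 0.817, and 13 of them were lower, against 63.0% of that 25%. For example, miR-21a-5p, which promotes fibroblast growth, had intensities of 78.9 and 90.3 (ratio 0.873). A larger difference was seen in miR-29a-3p, a repressor of collagen genes, with 12.1 and 21.5 (ratio 0.563).

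A list of 10 stems linked to TGF-β and fibrosis gave 17 entries with a median ratio of 0.873. Of these, 3 were lower and 2 higher by at least 1.5-fold, beside 7.58% and 17.8% of all entries. The lower ones were miR-29a-3p, miR-29b-2-5p (ratio 0.649) and miR-34a-5p (ratio 0.629), a miRNA induced by p53. The higher ones were miR-192-5p and miR-200b-3p. Of these 5, miR-29b-2-5p, miR-192-5p and miR-200b-3p were dim, at most 0.144 on either array, and miR-192-5p was at the lowest value found in MSC-MVs. The bright miR-29b-3p, at 22.3 (EPO-MVs) and 29.6 (MSC-MVs), stayed within 1.5-fold (ratio 0.753). So did miR-29c-3p, at 6.38 and 7.06 (ratio 0.904).

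**Figure D4:**
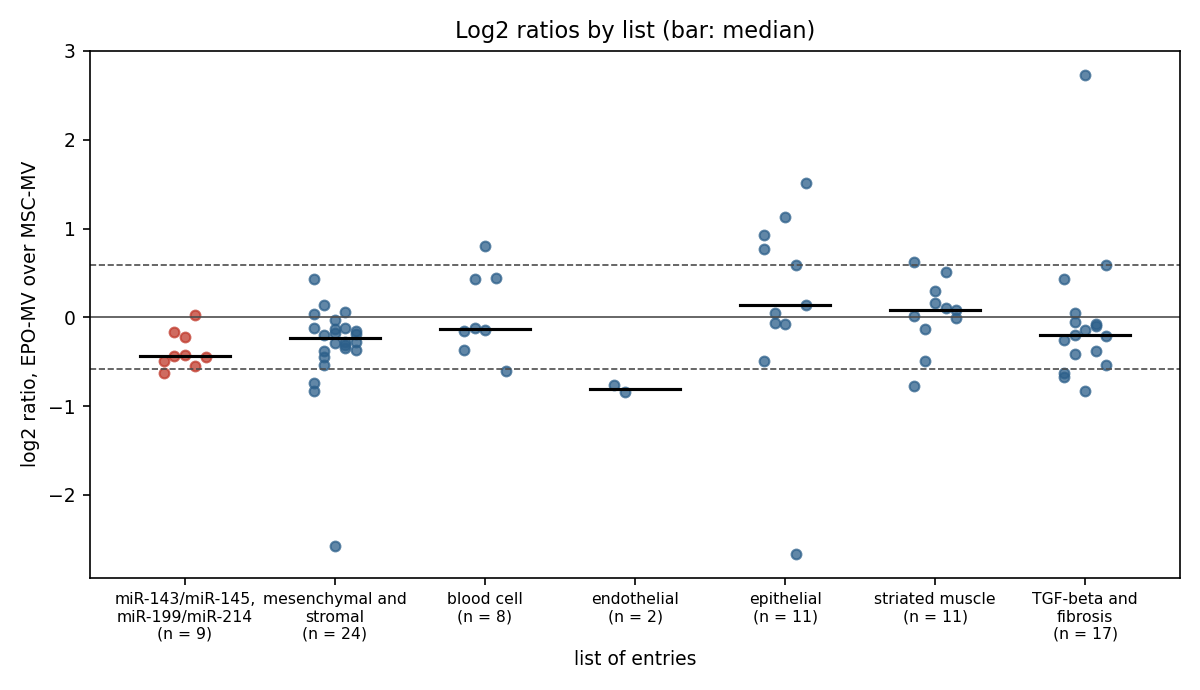
Log2 ratio of EPO-MVs to MSC-MVs (vertical) of the 9 entries (red) and of 6 lists of other miRNAs (blue), 1 point per entry, with a black bar at the median and dashed lines at 1.5-fold. The median of the 9 entries, -0.44, lies below those of the mesenchymal and stromal list (-0.24) and the blood cell list (-0.13), and above that of the 2 endothelial entries (-0.80).

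Markers of other cells were also read. Probe brightness is not abundance, so the counts below describe brightness and cannot check the MSC label. In the brightest 25% were 7 of the 9 entries described here, 15 of the 24 other mesenchymal and stromal entries, and 4 of the 8 entries on the blood cell list. The hematopoietic miR-142-3p read 44.0 (EPO-MVs) and 48.9 (MSC-MVs) and ranked 8th in brightness on both arrays. The myeloid miR-223-3p read 13.6 and 20.7, and the erythroid miR-451a 3.87 and 4.28. The dimmer erythroid miR-144-3p went the other way, with 0.340 and 0.195 (ratio 1.75), as did miR-150-5p (ratio 1.36) and the shared entry of miR-3107-5p and miR-486-5p (ratio 1.34). Past 1.5-fold were miR-223-3p, lower, and miR-144-3p, higher. Together the 8 entries summed to 67.8 and 80.3, and 5 of them were lower in EPO-MVs. Their part in the ratios of the stromal clusters was not tested. The 2 entries of the endothelial miR-126a were dim, at most 0.260, and both were lower by at least 1.5-fold, with ratios of 0.589 and 0.556. The 11 epithelial entries reached at most 0.221, and 5 were higher and 1 lower by at least 1.5-fold, where 17.8% of all entries were higher and 7.58% lower and such calls crowd among dim entries. Of the 11 striated muscle entries, miR-206-3p was in the brightest 25%, at 1.10 and 1.11. On this list 4 entries were lower in EPO-MVs and 7 higher, where 43.9% of all entries were lower. Past 1.5-fold were the dim miR-133b-3p, higher (ratio 1.54), and miR-206-5p, lower (ratio 0.584).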

How the data were processed

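RNA of EPO-MVs (1 array) and MSC-MVs (1 array) was measured on the miRCURY LNA Array. Per the labels, the RNA was labelled with Hy3, and the methods name a labeling kit for that dye and a further one. Per the methods, the authors scanned with an Axon GenePix scanner, read images with GenePix Pro 6.0 and averaged replicate spots. They applied median normalization with a factor from miRNAs of intensity at least 30 in all samples. The deposited values are these normalized intensities on a linear scale. The channel read and any background correction are not given in the sources used here, so no entry can be called above background. Multiplied by 471 (EPO-MVs) or 447 (MSC-MVs), the inverse of the smallest value of the array rounded to a whole number, every value was a whole number of steps within 0.0001.

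For all 831 entries, EPO-MV values were divided by MSC-MV values, without a pseudocount or filter, with a threshold of 1.5-fold in either direction. With 1 array per group no test was run, and the number of arrays limits the precision. The study's methods name fold change filtering. Entries were ordered by brightness as the mean log2 intensity of both arrays. Besides all 9 entries, the text names the 3 entries nearest in Euclidean distance to miR-143-3p, miR-199a-5p and miR-214-3p, entries sharing a printed seed, and entries of 6 marker lists. The members and lists were chosen with earlier results of these data known. Mature and hairpin sequences came from RefSeq (GRCm38.p6), matched by name, without those of the chromosome of Mir143 and Mir145a. In all, 10 planned and 2 added alternatives were tried. The counting code was run on a copy of the MSC-MV values in which some entries were changed by a fixed factor, without noise. This checks the code and not the calls on the arrays. Tables were handled with pandas 2.3.3 and numpy 2.4.6 in Python 3.11.15, lowess came from statsmodels 0.14.6, rank correlations from scipy 1.17.1 and figures from matplotlib 3.10.9.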

Additional observations from a re-analysis of the deposited data

How the results depend on the processing

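The number of the 9 entries past the threshold, 1 with the deposited values, was 0 at a threshold of 2-fold and 6, all lower in EPO-MVs, at 1.2-fold, where 2.53% and 21.9% of all entries were lower. It was 2 after re-centring on the median of all entries, with miR-145a-5p/miR-145b at a ratio of 0.660. It was 0 after lowess (span 0.4, 3 iterations), quantile normalization and scaling each array to its 75th percentile, and 0 under both alternatives chosen after seeing the data, scaling to the summed intensity and re-centring on the median of the brightest 25% of entries, where miR-143-3p had ratios of 0.710 and 0.688. Lower past the threshold among all entries were 8.54% after re-centring on their median, 11.6% under lowess, 11.4% after quantile normalization, 6.26% after scaling to the 75th percentile, 5.42% after scaling to the sum and 5.66% after re-centring on the brightest 25%. The cause was not tested beyond the construction of each alternative. It stayed at 1 among entries above the median intensity, among those with at least 30 steps on both arrays, after re-centring on those above the median, and after adding 0.0573 (the 25th percentile) to both arrays, where 6.02%, 4.89%, 6.50% and 3.01% of the entries counted were lower. The median log2 ratio of the 9 entries was below 0 under the 8 alternatives that rescale or shift the values, from -0.49 to -0.27; all 9 entries pass both filters, which leave it at -0.44. Scaling to the summed intensity shifted the median log2 ratio of all entries by 0.13, which leaves the 9 entries at -0.49 relative to that median by construction. Relative to the median of all entries, they lay at -0.27 under lowess and -0.30 after quantile normalization. No paired analysis was possible because each group had 1 array.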
